A study of Mus musculus with 8 samples.

Results

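The 7 genes described here encode subunits of voltage-gated sodium channels: the pore-forming alpha subunits Scn1a, Scn2a, Scn3a and Scn8a, and the accessory beta subunits Scn2b, Scn3b and Scn4b. They were taken by symbol from the 31053 genes of a single-cell RNA-seq data set and were followed over 23687 annotated cells, 8997 from the prefrontal cortex (PFC) and 14690 from the striatum. Each of the 4 groups (PFC WT, PFC Setd1a+/-, striatum WT, striatum Setd1a+/-) held 2 libraries, and each library pooled the dissociated tissue of 2 male C57BL/6N mice, given in the labels as 8 to 10 weeks old. The study's methods state an older age than the labels. Setd1a+/- mice carried a heterozygous CRISPR-Cas9 frameshift in the exon before the SET domain of the histone methyltransferase Setd1a, in every cell of the body, and WT mice carried none. The striatal tissue included its dorsal and ventral parts, although the sample labels name it NAc.

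Voltage-gated sodium channels open when the membrane depolarizes and carry the inward current of the action potential. A channel is a single large alpha subunit, which forms the pore and gives the channel its name, together with small single-pass beta subunits that modify gating and membrane delivery. In the adult forebrain Scn1a is known as the main alpha subunit of fast-spiking GABAergic interneurons, Scn2a and Scn8a serve the axon initial segment of principal neurons, and Scn3a is best known from the developing brain. Of the beta subunits, Scn2b and Scn4b bind the alpha subunit by a disulfide bond and Scn3b without one, and Scn4b is known for its high level in the striatum.

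Levels are given as CPM, the UMIs (unique molecular identifiers, 1 for each captured RNA molecule) of a gene per 1000000 UMIs of the same cells. The protocol counted 3′ ends, so that CPM was not divided by transcript length, and comparisons between genes below are of UMI counts as captured. Where 4 values are given in a row, they are those of WT replicates 1 and 2 and then Setd1a+/- replicates 1 and 2, and the error is the SD over these 4 libraries of a tissue. Cell types were the authors' clusters of the same cells, so that differences between types are described without a test, with the number of libraries that showed each direction. Intervals on counts are exact Poisson intervals at 95% and cover counting error only. Differences between genotypes and tissues were tested over libraries with edgeR's quasi-likelihood test across all genes, and log2 fold changes are given with their SE.

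The libraries held 5999666 to 13521114 UMIs in annotated cells, with a median of 2302.5 to 3042 UMIs per cell. Pairs of libraries shared 1 to 24 cell barcodes, against 4.47 to 23.9 expected by chance. Of the fixed marker genes, 24 of 24 in the PFC and 31 of 33 in the striatum were highest in the cell type they mark. The exceptions, Gad2 and Slc32a1, were higher in D1 medium spiny neurons (MSNs) than in striatal interneurons. The authors named the clusters by known markers in the same cells, so the marker counts are not an independent check of the names. The striatal interneuron cluster also held the excitatory markers Slc17a7 at 189, Neurod6 at 98.7 and Tbr1 at 51.0 CPM, against 6.69, 4.81 and 1.82 in PFC interneurons. Of its 821 cells, 223 carried at least 2 UMIs of markers of another class (mixed cells hereafter), here glia or excitatory neurons, against 24 of 298 in the PFC. MSN markers were not counted for interneurons. Ppp1r1b, Rgs9 and Bcl11b stood at 74.8, 35.2 and 101 CPM in striatal and 2.04, 17.7 and 147 in PFC interneurons. Setd1a itself stood at 8.45, 11.2, 5.59 and 9.33 CPM over all PFC cells and at 13.4, 15.2, 9.16 and 12.5 over all striatal cells. It was lower in the Setd1a+/- library than in the same-numbered WT library in 4 of 4 pairs, although the PFC genotypes overlapped. Where its 3′ tags lie was not checked, and these levels do not show the frameshift itself. Free RNA was gauged from near-empty droplets, barcodes with 10 to 100 UMIs outside the annotation.

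The alpha genes other than Scn8a lie together on chromosome 2, in the order Scn3a (chr2:65457118-65567627, minus strand), Scn2a (chr2:65620771-65767447, plus strand) and Scn1a (chr2:66270778-66440840, minus strand), in GRCm38 with the GENCODE annotation. Scn8a lies at chr15:100869858-101045938 on the plus strand. The beta genes are all on the plus strand of chromosome 9: Scn3b at chr9:40269217-40291618, Scn2b at chr9:45117782-45130070 and Scn4b at chr9:45138395-45154152, with 8324 bases between the end of Scn2b and the start of Scn4b. The ends of Scn2a and Scn1a are 503330 bases apart. Scn2a and Scn1a differed in opposite directions between excitatory neurons and interneurons, and Scn2b and Scn4b differed in how many cell types held them, as described below.

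The sequences upstream of Scn2a and Scn1a are shown because of this opposite pattern. Each is the 250 bases before an annotated start of RefSeq (GRCm38.p6), 5′ to 3′ on the strand of the gene, in lower case with motif matches in capitals. The motifs searched on both strands were the TATA box (TATAAA), the CCAAT box (CCAAT), the GC box (GGGCGG) and the E-box (CACGTG). They are from chr2:66440838-66441087 (minus strand) for Scn1a, from chr2:65620519-65620768 (plus strand) for the first start of Scn2a and from chr2:65668436-65668685 (plus strand) for a start that lies within the Scn2a gene.
Scn1a: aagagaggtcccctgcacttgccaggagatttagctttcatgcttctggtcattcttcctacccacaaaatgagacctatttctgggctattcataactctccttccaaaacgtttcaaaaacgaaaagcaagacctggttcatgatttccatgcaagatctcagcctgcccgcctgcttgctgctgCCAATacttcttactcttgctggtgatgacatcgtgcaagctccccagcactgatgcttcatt
Scn2a, first start: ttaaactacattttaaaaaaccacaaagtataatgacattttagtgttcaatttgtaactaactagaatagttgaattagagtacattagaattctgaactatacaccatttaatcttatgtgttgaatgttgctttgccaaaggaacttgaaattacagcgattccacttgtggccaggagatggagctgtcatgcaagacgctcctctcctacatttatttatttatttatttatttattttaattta
Scn2a, start within the gene: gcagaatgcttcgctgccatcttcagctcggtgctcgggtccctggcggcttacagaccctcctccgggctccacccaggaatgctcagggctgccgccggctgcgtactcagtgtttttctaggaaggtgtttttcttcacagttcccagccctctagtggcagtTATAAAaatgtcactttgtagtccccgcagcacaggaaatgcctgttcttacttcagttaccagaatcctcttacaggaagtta

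The Scn1a window held a CCAAT match, found in 33.8% of the 32851 promoter windows of the same length. The inner Scn2a window held a TATAAA match, found in 12.4% of all windows, and the first Scn2a window held none of the 4 motifs (the GC box was in 32.7% and the E-box in 6.02% of all windows). G and C made up 46.8% of the Scn1a window, 53.2% of the inner Scn2a window and 29.6% of the first Scn2a window, against a median of 52.4% over all windows. RefSeq windows were found for 5 of the 7 members, the exceptions being Scn3a and Scn3b.

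**Figure D1:**
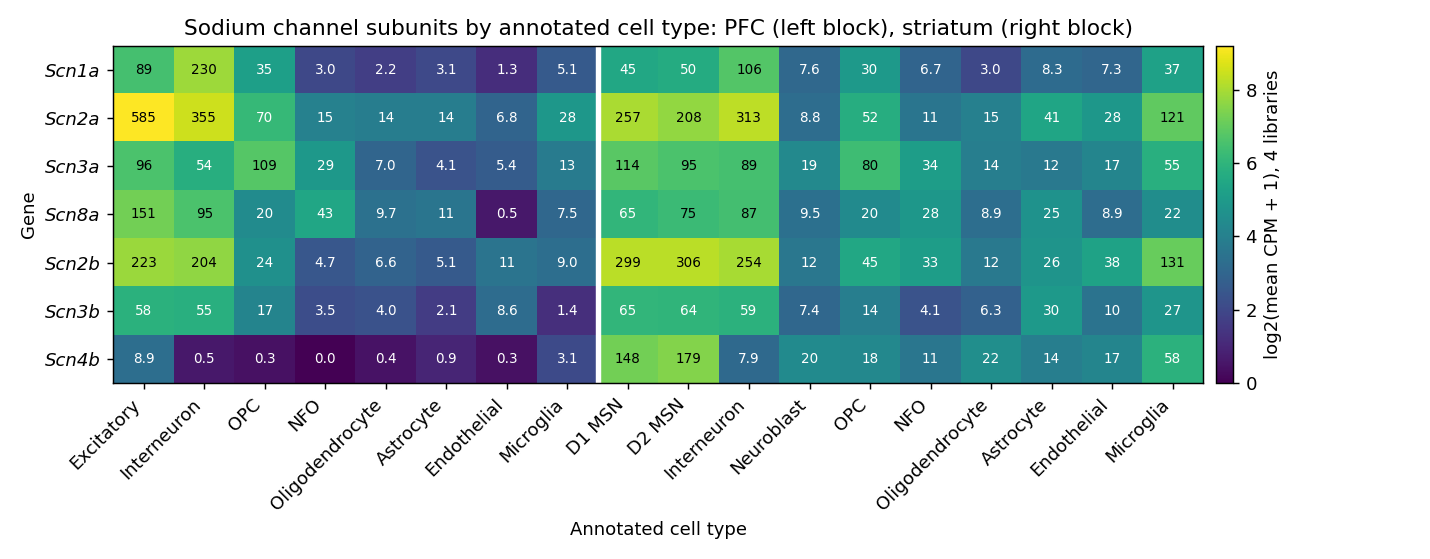
Heat map of the mean level (CPM over 4 libraries) of the 7 genes in the 8 PFC and 10 striatal cell types; the number in each field is the mean and the colour its log2(CPM + 1). Scn2a was highest in PFC excitatory neurons (585 CPM), Scn1a in PFC interneurons (230.0 CPM), Scn4b in D2 MSNs (179 CPM), and Scn3a stood out among glia in oligodendrocyte progenitors (109 CPM in the PFC).

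Scn2a was the most abundant alpha subunit transcript in excitatory neurons, interneurons and MSNs. In PFC excitatory neurons its level was 621, 568, 592 and 559 CPM (585 ± 27.5, n = 4), and 91.7% of these cells carried a UMI of it. PFC interneurons held 366, 392, 328 and 334 CPM (355 ± 29.7). Every interneuron value lay below every excitatory value, with a mean within-library log2 ratio of -0.72 (SD 0.13, lower in 4 of 4 libraries). In the striatum, interneurons held 264, 333, 336 and 317 CPM (313 ± 33.3), D1 MSNs 257, 262, 268 and 241 (257 ± 11.4) and D2 MSNs 194, 221, 223 and 194 (208 ± 16.1). D2 MSNs were below D1 MSNs in 4 of 4 libraries (log2 ratio -0.31, SD 0.07), a difference close to 1.24-fold. Progenitors held 70.2 ± 5.17 CPM in the PFC and 52.2 ± 7.39 in the striatum, both below the near-empty droplets of their tissue (213 and 158 CPM). Other non-neuronal types held 2.41 to 40.5 CPM in the PFC; striatal microglia held 67.2, 180.4, 58.0 and 179 CPM, above the near-empty droplets of the same library (139, 166, 149 and 176 CPM) in 2 of 4, and are taken up with the tissues below.

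Scn1a, the alpha subunit known from fast-spiking interneurons, was the only alpha gene that was higher in interneurons than in excitatory neurons of the PFC. PFC interneurons held 297, 207, 171 and 245 CPM (230.0 ± 54.0) and excitatory neurons 109, 68.9, 77.4 and 101 CPM (89.1 ± 18.9). The 2 types did not overlap, and the ratio within a library was 1.36 on the log2 scale (SD 0.19, higher in 4 of 4), close to 2.57-fold. WT replicate 1 and Setd1a+/- replicate 2 were the higher libraries in interneurons, excitatory neurons and progenitors alike. In the striatum the level was 83.3, 104, 116 and 121 CPM in interneurons (106 ± 16.7), 47.0, 41.0, 47.5 and 44.8 in D1 MSNs (45.1 ± 2.97) and 38.4, 43.9, 58.6 and 57.2 in D2 MSNs (49.5 ± 9.94). Interneurons exceeded MSNs in every library (log2 ratio 1.17, SD 0.16), whereas D1 and D2 MSNs overlapped. MSN levels lay near those of the striatal near-empty droplets (34.1 CPM), and the part of free RNA in them was not tested.

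Scn8a, which serves the initial segment and nodes of Ranvier, was highest in excitatory neurons with the smallest relative spread of the alpha genes there, at 153, 147, 158 and 144 CPM (151 ± 6.05). PFC interneurons varied more, at 123, 112, 86.5 and 59.6 CPM (95.1 ± 28.2), and were below excitatory neurons in 4 of 4 libraries (log2 ratio -0.72, SD 0.45). The PFC near-empty droplets held 36.8, 48.2, 63.6 and 65.0 CPM, so that interneurons of Setd1a+/- replicate 2 lay below the droplets of their library. Striatal interneurons held 95.4, 86.4, 91.1 and 73.6 CPM (86.6 ± 9.47), D2 MSNs 82.7, 73.0, 81.3 and 65.0 (75.5 ± 8.18) and D1 MSNs 77.6, 59.8, 62.4 and 60.2 (65.0 ± 8.47). Within a library D2 MSNs were above D1 MSNs in 4 of 4 (log2 ratio 0.22, SD 0.14), opposite in direction to Scn2a and Scn3a. The excess of striatal interneurons over MSNs (0.32, SD 0.09) turned to -0.12 when mixed cells were left out.

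Scn3a was the alpha gene with the least neuronal pattern. PFC excitatory neurons held 98.6, 96.1, 101 and 87.4 CPM (95.7 ± 5.90), and oligodendrocyte progenitors held 97.4, 111, 101 and 129 (109 ± 14.0). These 2 types overlapped, with progenitors above excitatory neurons in 2 of 4 libraries (log2 ratio 0.19, SD 0.27). PFC interneurons were lower, at 60.0, 47.8, 44.4 and 62.9 CPM (53.8 ± 9.05). In the striatum D1 MSNs led with 101, 97.7, 135 and 124 CPM (114 ± 18.1), followed by D2 MSNs with 88.9, 78.8, 121 and 90.5 (94.8 ± 18.3) and interneurons with 84.8, 81.4, 99.8 and 89.6 (88.9 ± 7.98). D2 MSNs were below D1 MSNs in 4 of 4 libraries (log2 ratio -0.28, SD 0.14). The striatal neuroblast cluster holds neural stem cells as well as neuroblasts, by the study's naming. It had few UMIs of any alpha gene, at 18.9 ± 9.67 CPM of Scn3a, 9.54 ± 6.88 of Scn8a, 8.85 ± 10.4 of Scn2a and 7.65 ± 5.86 of Scn1a. Each lay below the striatal near-empty droplets.

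**Figure D2:**
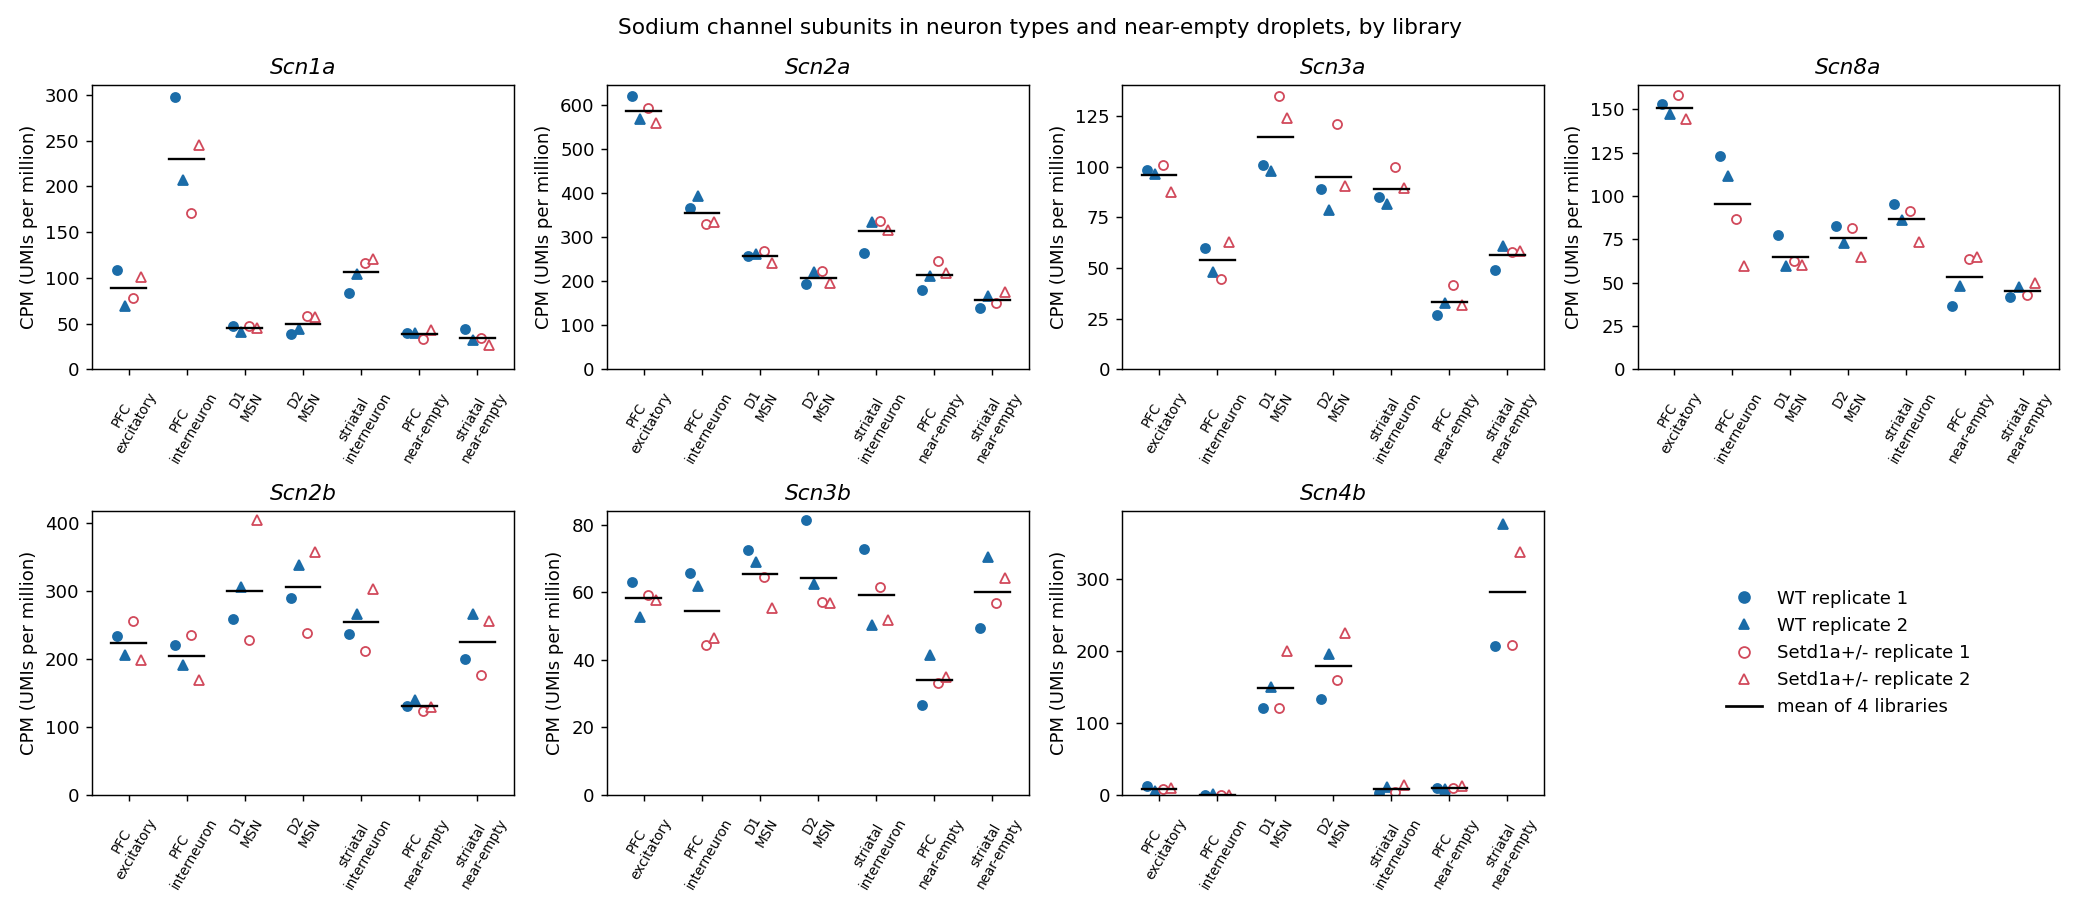
Level (CPM) of each gene by library in PFC excitatory neurons and interneurons, striatal D1 MSNs, D2 MSNs and interneurons, and the near-empty droplets of both tissues; each point is a library and each bar a mean of 4. Scn1a points of PFC interneurons (171 to 297 CPM) lie above those of all other types, and Scn4b points of striatal near-empty droplets (207 to 376 CPM) lie above those of MSNs of the same library (121 to 225 CPM over all).

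As a share of the UMIs of the 4 alpha genes, Scn2a made up 63.6 ± 0.78% in excitatory neurons, 48.7% in PFC interneurons, 53.4% in D1 MSNs, 48.7% in D2 MSNs and 52.6% in striatal interneurons. The second gene differed between types: it was Scn8a in excitatory neurons (16.4%), Scn1a in interneurons of the PFC (31.1 ± 4.51%) and of the striatum (17.8%), and Scn3a in D1 and D2 MSNs (23.7% and 22.0%). In striatal interneurons of WT replicate 1 Scn1a came last, with 110 UMIs against 126 of Scn8a and 112 of Scn3a. In PFC progenitors Scn3a came first (46.5 ± 4.46%) and in newly formed oligodendrocytes (NFO) Scn8a did (47.5 ± 3.02%). These NFO levels of Scn8a lay below the near-empty droplets of their library except in WT replicate 1.

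Scn2b was at a similar level in PFC excitatory neurons as a whole and PFC interneurons, and its ranges overlapped between the MSNs and interneurons of the striatum, whereas striatal neuroblasts held 11.5 CPM. Its level was 233, 206, 255 and 198 CPM in excitatory neurons (223 ± 26.1) and 220.1, 191, 235 and 169 in PFC interneurons (204 ± 29.6), which were slightly lower in 4 of 4 libraries (log2 ratio -0.14, SD 0.07). The PFC near-empty droplets held 131 CPM. In the striatum it was 259, 306, 228 and 404 CPM in D1 MSNs (299 ± 76.6), 289, 338, 238 and 357 in D2 MSNs (306 ± 53.3) and 236, 267, 212 and 303 in interneurons (254 ± 39.2). Replicate 2 was higher than replicate 1 of its genotype in each of these 3 types, and also in the near-empty droplets, at 199, 266, 177 and 256 CPM. The part of free RNA in this spread was not tested.

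Scn4b was the member with the narrowest distribution. D1 MSNs held 121, 150.4, 121 and 201 CPM (148 ± 37.6) and D2 MSNs 134, 196, 160.2 and 225 (179 ± 40.0), with D2 above D1 in 4 of 4 libraries (log2 ratio 0.27, SD 0.14). Striatal interneurons held 3.03, 10.7, 3.70 and 14.1 CPM (35 UMIs in 821 cells), far below MSNs of the same libraries. PFC excitatory neurons held 12.2, 5.99, 7.91 and 9.65 CPM (8.93 ± 2.63, 160 UMIs), against 9.98, 8.52, 9.64 and 12.1 in PFC near-empty droplets, and were above the droplets of their library in WT replicate 1 alone. In PFC interneurons a single UMI was found in 298 cells, and in PFC NFO none in 295 cells, which allows a level of up to 3.33 CPM and up to 1.02% of cells with a UMI, and does not bound the share of cells that express the gene. Striatal near-empty droplets held 207, 376, 208 and 338 CPM (283 ± 87.7), above D1 and D2 MSNs in every library. Scn4b UMIs in striatal glia are therefore not read as expression. They stood at 9.00 to 37.0 CPM in progenitors, 3.85 to 62.9 in oligodendrocytes and 35.7 to 74.7 in microglia. The droplet level alone does not set glia apart from MSNs. Replicate 2 was above replicate 1 of its genotype in D1 MSNs, D2 MSNs and the droplets alike. The part of free RNA in the MSN levels was not tested.

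Scn3b, the non-covalently bound beta subunit, was nearly level over these neuron types: 58.2 ± 4.25 CPM in excitatory neurons, 54.5 ± 10.8 in PFC interneurons, 65.4 ± 7.41 in D1 MSNs, 64.4 ± 11.7 in D2 MSNs and 59.1 ± 10.4 in striatal interneurons. The ranges of these types overlapped. Interneurons were above excitatory neurons in 2 of 4 libraries and D2 above D1 MSNs in 2 of 4. The near-empty droplets held 34.1 CPM in the PFC, below both neuron types, and 49.5, 70.3, 56.7 and 64.1 in the striatum. D1 MSNs, D2 MSNs and interneurons lay below the droplets of their library in replicate 2 of both genotypes and above them in replicate 1, and the part of free RNA in striatal Scn3b was not tested. Progenitors held 16.6 CPM in the PFC and 14.2 in the striatum.

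Cells of the neuron types differed in depth, so shares of cells with a UMI were also computed after thinning each cell to 1000 UMIs. Scn2a was then found in 43.5 ± 1.77% of excitatory neurons, 29.5% of PFC interneurons, 21.9% of D1 and 18.6% of D2 MSNs, in the order of the CPM. Without thinning the shares were 91.7%, 76.5%, 53.2% and 50.0%. PFC oligodendrocytes had 3.01% before and 1.31% after thinning. Other non-neuronal types had more after thinning, with 6.21 to 7.17% in PFC progenitors and 5.62, 8.90, 3.43 and 15.9% in striatal microglia. For Scn1a the thinned share was 19.6 ± 4.72% of PFC interneurons and 8.88 ± 2.09% of excitatory neurons (60.7% and 37.0% unthinned), against 0.159% of oligodendrocytes. For Scn4b it was 11.9 ± 2.63% of D1 MSNs and 15.5 ± 2.87% of D2 MSNs, against 0.740% of striatal interneurons. Striatal microglia had 4.63, 3.94, 1.29 and 7.09%, and striatal oligodendrocytes 0.438, 1.83, 0.447 and 4.27%.

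Between progenitors and NFO of the PFC, Scn3a and Scn8a differed in opposite directions. Scn3a was 109 ± 14.0 CPM in progenitors, 29.1 in NFO and 2.90 to 11.4 in oligodendrocytes, with log2 ratios of -1.92 for NFO over progenitors (SD 0.19, lower in 4 of 4) and 4.14 for progenitors over oligodendrocytes (SD 0.71, higher in 4 of 4). Scn8a was 18.0, 24.8, 17.8 and 21.4 CPM in progenitors and 41.7, 45.9, 39.0 and 44.8 in NFO (42.9 ± 3.14). The NFO values did not overlap those of progenitors (log2 ratio 1.08, SD 0.14) or of oligodendrocytes, at 6.38, 7.39, 17.9 and 7.14 CPM. The near-empty droplets of the PFC held 36.8, 48.2, 63.6 and 65.0 CPM of Scn8a (mean 53.4) and 26.8, 32.9, 41.4 and 31.7 of Scn3a (mean 33.2). For Scn8a, NFO lay above the droplets of their library in WT replicate 1 alone, and progenitors in none. For Scn3a, NFO lay above them in Setd1a+/- replicate 2 alone. NFO rested on 38 UMIs of Scn8a and 25 of Scn3a. In the striatum Scn3a stood at 95.1, 77.4, 104 and 43.2 CPM in progenitors. Striatal oligodendrocytes held 3.19, 5.92, 3.42 and 44.1 CPM, on 28 UMIs in all, and the last value came from 67 cells. Setd1a+/- replicate 2 was thus the lowest library in progenitors and the highest in oligodendrocytes. Striatal NFO held 45.5, 21.2, 21.9 and 45.9 CPM of Scn3a, below progenitors in 3 of 4 libraries. For Scn8a they held 17.05, 21.2, 27.3 and 45.9 CPM on 12 UMIs, against 25.4, 14.6, 21.9 and 18.5 in striatal progenitors, so that the types overlapped and the separation seen in the PFC was not found there. The striatal near-empty droplets held 48.9, 60.6, 57.7 and 58.4 CPM of Scn3a and 41.7, 47.4, 43.1 and 49.6 of Scn8a. Striatal NFO and oligodendrocytes lay below them for Scn3a, NFO and progenitors did for Scn8a, and Scn3a in progenitors lay above them except in Setd1a+/- replicate 2.

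The PFC excitatory neurons were divided by the authors into superficial-layer (SL) and deep-layer (DL) subtypes named for a marker gene. The names are used as deposited: Etv1 was at 1031 CPM in DL-Tshz2 against 233 in DL-Etv1 neurons, and Cux2 at 146 in SL-Myh7 against 113 in SL-Cux2 neurons. DL-Tshz2 neurons were the lowest subtype for Scn8a in 4 of 4 libraries and the highest for Scn2b in 3 of 4 and for Scn1a in 2 of 4. Scn8a was there at 130.1, 88.4, 99.3 and 66.1 CPM (96.0 ± 26.6), against 166, 140, 143 and 116 in SL-Cux2 neurons of the same libraries (log2 ratio -0.59, SD 0.20). Scn1a was highest there among the subtypes other than DL-Pou3f1, at 207, 123, 122 and 178 CPM (158 ± 42.3), and exceeded SL-Cux2 neurons in 4 of 4 libraries (log2 ratio 0.59, SD 0.09). DL-Pou3f1 neurons, 62 cells in all and 7 to 35 per library, exceeded DL-Tshz2 neurons in 2 of 4. The ratios of DL-Tshz2 to SL-Cux2 neurons were not planned and describe a subtype that already stood at an extreme. Scn2b was 284, 288, 310 and 330 CPM in DL-Tshz2 neurons (303 ± 21.3), the highest subtype in 3 of 4 libraries, whereas SL-Myh7 neurons had the lowest level in 4 of 4 libraries, at 181, 112, 160 and 151 CPM (151 ± 28.8).

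Scn2a varied less over subtypes, from 477 ± 53.8 CPM in DL-Tshz2 to 656 ± 33.2 in DL-Etv1 neurons. Scn3a was lowest in DL-Nnat neurons (78.8 CPM) in 4 of 4 libraries once DL-Pou3f1 was left out. The few Scn4b UMIs of the cortex gave 19.3 ± 3.67 CPM in DL-Tshz2 neurons and 17.1 ± 12.0 in DL-Foxp2 neurons, at 27 and 57 UMIs, above the near-empty droplets of their library in 4 of 4 and 3 of 4 libraries. DL-Foxp2 and SL-Cux2 neurons, both large subtypes, differed in the same direction in 4 of 4 libraries only for Scn1a (log2 ratio -0.46, SD 0.33).

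**Figure D3:**
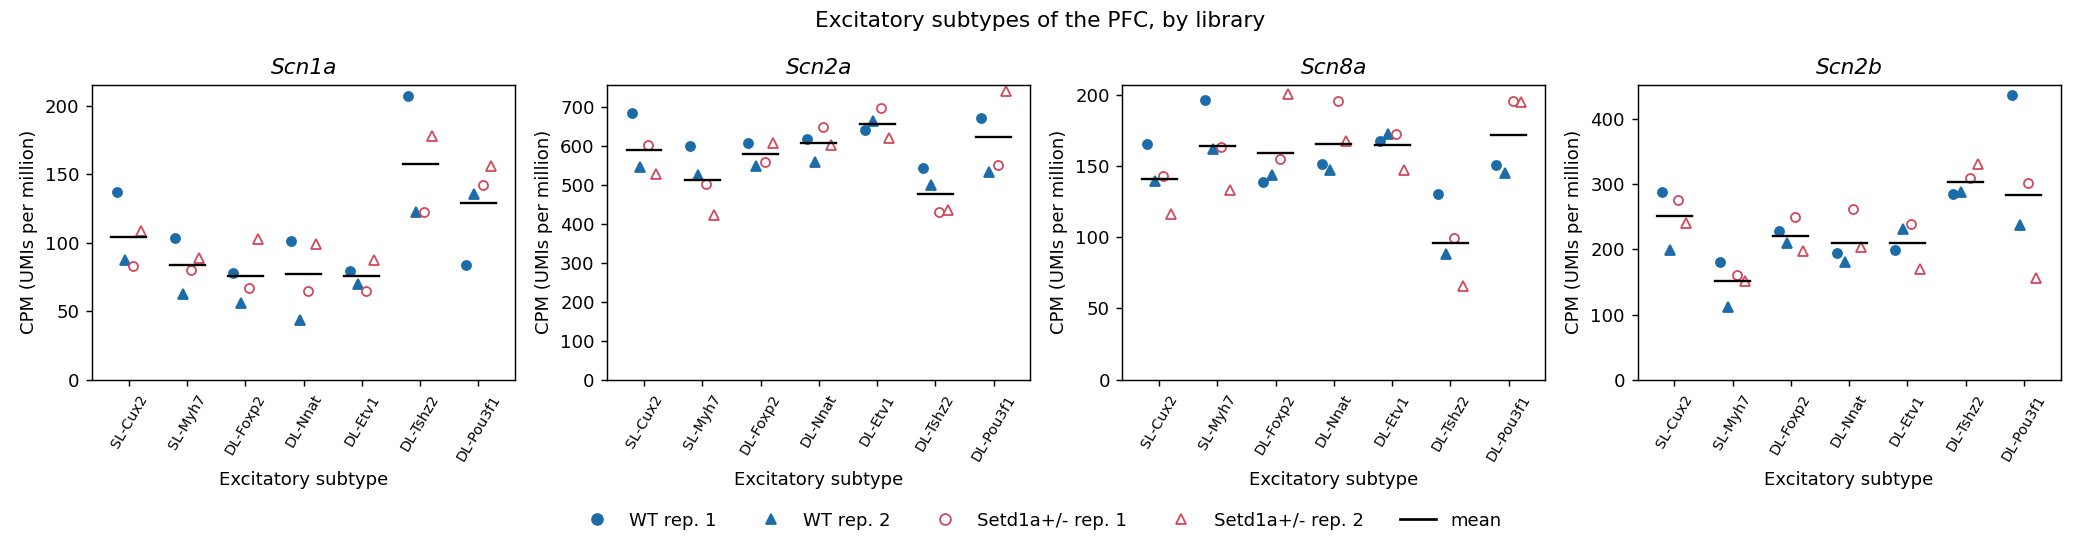
Level (CPM) of Scn1a, Scn2a, Scn8a and Scn2b in the excitatory subtypes of the PFC; each point is a library. DL-Tshz2 neurons are low for Scn8a (66.1 to 130.1 CPM) and high for Scn2b (284 to 330 CPM), and SL-Myh7 neurons are low for Scn2b (112 to 181 CPM).

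Interneurons were then grouped by the class gene of which a cell carried at least 2 UMIs, with cells carrying several such genes (166 of 298 in the PFC, 102 of 821 in the striatum) kept apart. In the PFC, Scn1a was 491 CPM in Pvalb cells, which include the fast-spiking basket cells (interval 346 to 676, 37 UMIs in 11 cells), 202 CPM in Sst cells (146 to 273, 40 cells) 156 CPM in Vip cells (96.6 to 239, 38 cells) and 228 CPM in Npy cells (124 to 382, 17 cells). The pooled interval of Pvalb cells lay above those of Sst and Vip cells and overlapped that of Npy cells, but the libraries overlapped between Pvalb cells (400.2 to 644 CPM) and Sst cells (111 to 700.2). Scn8a was 252 CPM in Pvalb cells (152 to 394), 130.05 in Sst cells (85.7 to 189) and 37.2 in Vip cells (12.1 to 86.8), and the intervals of Pvalb and Sst cells overlapped. Scn2a had another order, with 515 CPM in Sst cells (422 to 623), 268 in Vip cells (187 to 371) and 199 in Pvalb cells (111 to 328). For Scn2a the libraries of Sst cells (450.4 to 630.2 CPM) lay above those of Vip cells (229.9 to 332) and Pvalb cells (0 to 322).

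In the striatum Scn1a was 301 CPM in the 59 Pthlh cells (242 to 371) and 308 in the 6 Pvalb cells (141 to 584), and it was 139 in Th cells (93.5 to 198), 66.3 in Chat cells (31.8 to 122) and 59.7 in Sst cells (33.4 to 98.5). The 479 striatal interneurons without any class gene, 58.3% of that cluster, held 59.9 CPM (50.8 to 70.2). In the PFC only 7.05% of interneurons carried no class gene. Scn2a in the striatal cells without a class gene was 341 CPM (319 to 364), against 247 (193 to 310) in Pthlh cells. The libraries overlapped between them, at 283 to 409 CPM without a class gene and 219 to 360 CPM in Pthlh cells.

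**Figure D4:**
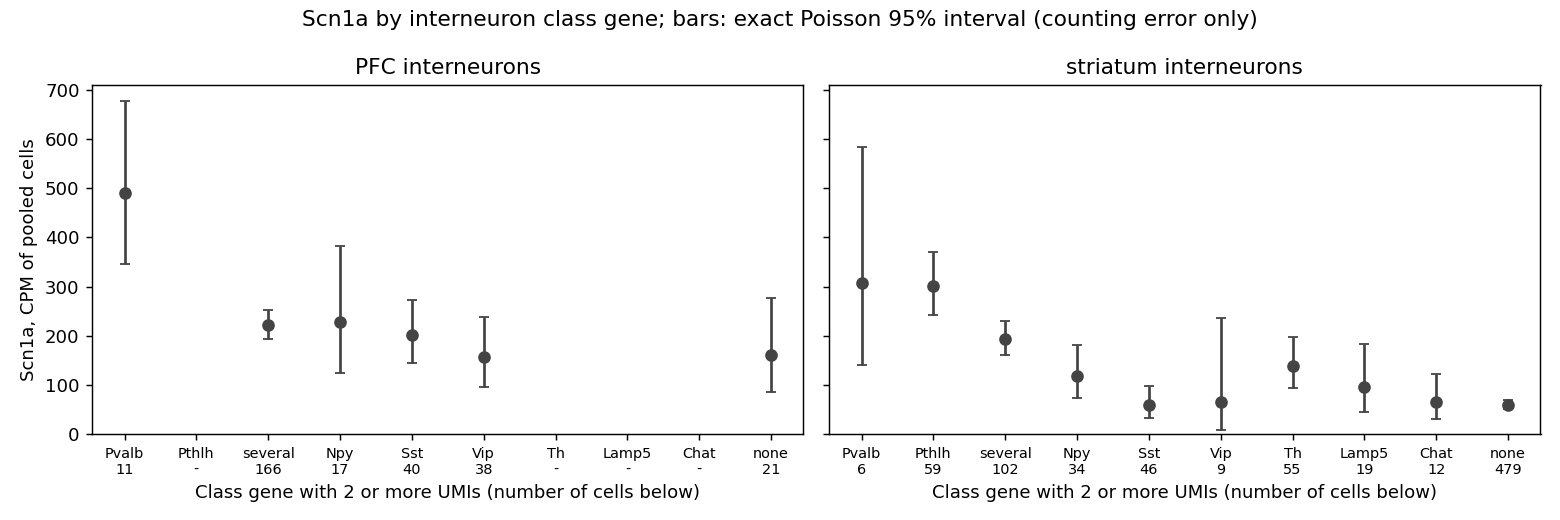
Scn1a level (CPM) in interneurons grouped by class gene in the PFC and the striatum, over cells pooled from 4 libraries; bars are exact Poisson 95% intervals, and classes with fewer than 6 cells are left out. PFC Pvalb cells (491 CPM) and striatal Pthlh cells (301 CPM) lie above striatal cells with no class gene (59.9 CPM).

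Levels in the 2 tissues were compared in the cell types annotated in both, over 8 libraries with genotype as a covariate. The study's methods state a longer papain digestion for striatum than for PFC, so that tissue and digestion time cannot be told apart. In interneurons Scn1a was lower in the striatum by 1.09 on the log2 scale (log2 fold change -1.09, SE 0.20, adjusted p = 0.00156 in edgeR's test), and all 4 striatal libraries (83.3 to 121 CPM) lay below all 4 PFC libraries (171 to 297). Scn3a was higher in the striatum (0.77, SE 0.19, edgeR adjusted p = 0.0149), at 81.4 to 99.8 CPM against 44.4 to 62.9. The other 4 members tested in interneurons did not pass: Scn2a at -0.16 (SE 0.15), Scn8a at -0.11 (SE 0.19), Scn3b at 0.14 (SE 0.21) and Scn2b at 0.35 (SE 0.17). Scn4b had too few UMIs to be tested. Of the 7419 genes tested in interneurons, 5.9% were called higher and 5.9% lower in the striatum. Without mixed cells the values were -0.76 for Scn1a (edgeR adjusted p = 0.0217) and 0.93 for Scn3a (edgeR adjusted p = 0.00657), while Scn8a moved to -0.56 and Scn2a to -0.37, neither of them called (edgeR adjusted p = 0.0947 and 0.15). Without PFC Setd1a+/- replicate 1 Scn3a was 0.63 and no longer called (edgeR adjusted p = 0.0621). The tissues also differed in the interneuron classes they held and in the share of cells without a class gene, as given above, and the part of this composition in the result was not tested.

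Over all shared types 7 of 19 tests of members were called and 6.63% of all tests. The 5 calls outside interneurons were in endothelial cells and microglia, and the count filter, which asked for a minimum level in 4 libraries, bears on them. The called members reached it in 4 of 4 striatal libraries, but in 0 of 4 PFC libraries in microglia and 1 to 3 of 4 in endothelial cells, so that none would have passed on the PFC libraries alone and the 7 calls are not read against the share of all tests. PFC endothelial cells held 7, 3, 9 and 3 UMIs of Scn3a, and PFC microglia 3, 2, 1 and 2 UMIs of Scn2b and 3, 7, 4 and 6 of Scn2a. Endothelial cells of the striatum held more Scn2a (log2 fold change 1.84, SE 0.34), Scn2b (1.95, SE 0.33) and Scn3a (1.68, SE 0.37), with edgeR adjusted p = 0.00675, 0.00393 and 0.018, and microglia more Scn2b (3.68, SE 0.45) and Scn2a (2.24, SE 0.61), with edgeR adjusted p = 0.000426 and 0.0246. In these comparisons 4.88% of the genes tested in endothelial cells and 12.5% of those in microglia were called higher in the striatum. For Scn2b the levels were 25.9 to 54.6 CPM of Scn2b in striatal endothelial cells and 109, 107, 84.8 and 224 in striatal microglia, each below the near-empty droplets of its own library (199, 266, 177 and 256 CPM). In endothelial cells the summed level of the 9 neuronal markers had a median of 21.9 CPM in the PFC (11.5 to 41.1) and 314 in the striatum (152 to 448), where 9 and 8 of the 9 markers had a UMI. In microglia it was 94.9 (24.8 to 189) and 1173 (763 to 1345), where 9 and 7 had one. This sum depends on the neuron type, with medians of 1109 CPM in PFC excitatory neurons and 3772 in PFC interneurons. Its medians were 3038 in D1 MSNs, 3234 in D2 MSNs and 1786 in striatal interneurons. The part of neuronal RNA in these calls was not tested. Mixed cells made up 20.1% of striatal endothelial cells and 55.4% of striatal microglia. Without them Scn2b in endothelial cells was 1.34 and not called (edgeR adjusted p = 0.108), and the other 4 calls could no longer be tested because the genes fell below the count filter. Scn2a in microglia was also no longer called without PFC WT replicate 1 (1.44), striatum WT replicate 2 (1.69) or striatum Setd1a+/- replicate 2 (2.09), and Scn2a (1.83) and Scn3a (1.59) in endothelial cells without PFC WT replicate 1. Scn3a there was lost as well without PFC Setd1a+/- replicate 1 (1.67) or striatum WT replicate 2 (1.51).

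In progenitors, the glia with the clearest Scn3a level, none of 6 members passed edgeR's test, against 0.158% of all genes tested there, and 2 (1 in DESeq2) had an unadjusted p under 0.05, as did 13.8% of all genes (8.25% in DESeq2). These were Scn2a at -0.46 (SE 0.19) and Scn2b at 0.78 (SE 0.34), striatum over PFC, and Scn3a was -0.31 (SE 0.21).

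The study asked which cell types change in Setd1a heterozygosity, and the members were therefore compared between genotypes in each type where they passed the count filter. In the PFC no member could be tested in astrocytes or microglia, 1 could in NFO and 1 in oligodendrocytes, and DL-Pou3f1 neurons, with 7 cells in a library, were not tested. In the striatum none could be tested in NFO or neuroblasts. No member that could be tested passed in the PFC types (0 of 23 tests, log2 fold change -0.64 to 0.67), the excitatory subtypes (0 of 37, -0.34 to 0.68) or the striatal types (0 of 46, -1.35 to 0.67). The smallest edgeR adjusted p was 0.999 in the PFC types and subtypes and 0.933 in the striatum. Over all genes, the tests called 0% in the PFC types, 0% in the subtypes and 0.00544% in the striatum. At an unadjusted p under 0.05 edgeR had 0 member tests in the PFC types (DESeq2 0, background 1.7% of all tests), 0 in the subtypes (DESeq2 0, background 1.6%) and 2 in the striatum (DESeq2 1, background 2.62%). With the replicate number as a block these counts were 1, 0 and 5, against 4.7%, 4.33% and 5.19% of all tests with the block, and the striatal count was 10 of 52 without striatum Setd1a+/- replicate 1, against 9.63% of all tests, while the calls of the block stayed at 0. With 2 libraries per genotype, each a pool of animals, these p-values measure the spread between libraries.

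In excitatory neurons the estimates of the 7 members, without the replicate block, ran from -0.04 for Scn3a to 0.06 for Scn2b. Their 95% intervals reached from -0.47 to 0.41 on the log2 scale for Scn2a, from -0.63 to 0.71 for Scn1a and from -0.97 to 0.98 for the sparse Scn4b, so that changes within these bounds were not excluded. In PFC interneurons Scn8a stood at 123 and 112 CPM in WT and 86.5 and 59.6 in Setd1a+/- libraries, a log2 fold change of -0.64 (SE 0.30, 95% interval -1.33 to 0.04) that did not pass. Scn3b there was 65.7 and 61.7 CPM in WT and 44.4 and 46.3 in Setd1a+/- libraries (-0.47, SE 0.34). Both Setd1a+/- libraries were below both WT libraries for these genes and for Scn2a (-0.18, SE 0.25), and none of the 3 reached an unadjusted p of 0.05 in edgeR's test.

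The 2 striatal tests at an unadjusted p under 0.05 were Scn3a in D1 MSNs and Scn1a in D2 MSNs. Scn3a in D1 MSNs was 101 and 97.7 CPM in WT and 135 and 124 in Setd1a+/- libraries (log2 fold change 0.42, SE 0.14), where 2.07% of all genes had such a p. In D2 MSNs it was 88.9 and 78.8 against 121 and 90.5 CPM (0.37, SE 0.18). Scn1a in D2 MSNs was 38.4 and 43.9 CPM in WT and 58.6 and 57.2 in Setd1a+/- libraries (0.53, SE 0.19), with 2.5% of all genes at such a p, whereas in D1 MSNs it was 47.0 and 41.0 against 47.5 and 44.8 CPM (0.11, SE 0.17). Neither was called after adjustment. The genotype differences in interneurons were not shown to differ between tissues either (0 of 6 members with the interaction term, background 0%, with 3.44% of all genes at an unadjusted p under 0.05); the largest was Scn1a, at 0.63 (SE 0.37).

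**Figure D5:**
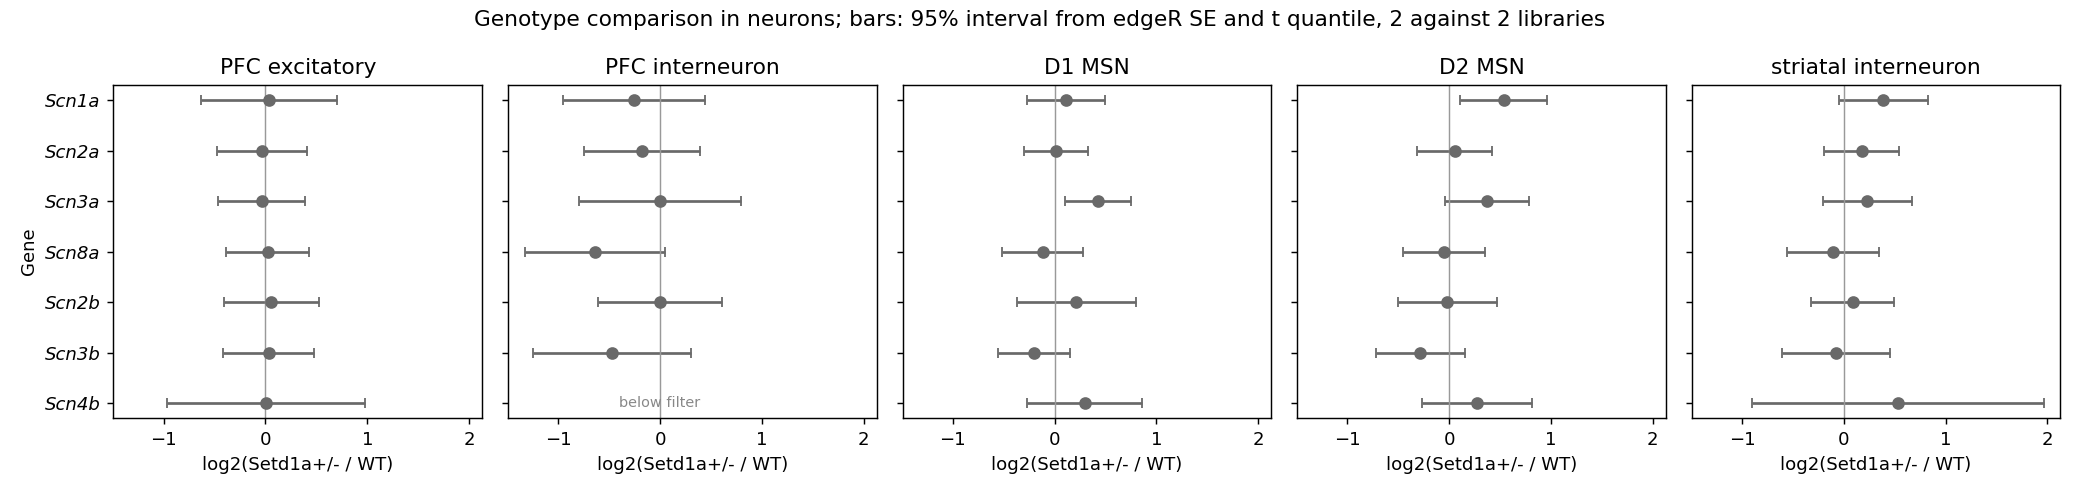
Log2 fold change of Setd1a+/- over WT for the 7 genes in 5 neuron types, with 95% intervals from edgeR's SE and the t quantile of its degrees of freedom; Scn4b in PFC interneurons was not tested. The values shown are among the 0 called of 23 PFC and 46 striatal tests, and the unadjusted intervals that do not reach 0 are those of Scn3a in D1 MSNs (0.42) and Scn1a in D2 MSNs (0.53).

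A list of 34 further genes of sodium channel function was followed beside the members: other subunits, fibroblast growth factor homologous factors, scaffold proteins of the initial segment and node, potassium channels of the same membrane domains, sodium pumps, the sodium leak channel and the repressor Rest. Among the highest in excitatory neurons were the pump subunit Atp1b1 at 947 CPM, the ankyrin Ank2 at 571 and the adhesion proteins Cntn1 at 399.7 and Nrcam at 268. Of the other channel subunits, Scn7a was highest in striatal astrocytes at 66.4 CPM. Between genotypes edgeR called none of the list in the PFC types (115 tests, 0 at an unadjusted p under 0.05, against 1.7% of all tests), the subtypes (149 tests, 1, against 1.6%) or the striatum (185 tests, 9, against 2.62%). Between tissues 7 of 27 tested in interneurons were called, where 5.9% of all genes were called in each direction: Nrcam (log2 fold change 1.09) and Cntn2 (1.13) were higher in the striatum, and Fgf13 (-1.91), Cntnap2 (-1.26), Atp1b2 (-0.97), Kcnq3 (-0.95) and Kcna2 (-0.90) were lower. The median over the list there was -0.06. Of the genes called higher, Nrcam was highest in PFC excitatory neurons. Cntn2, near the cutoff (edgeR adjusted p = 0.0468), was highest in PFC oligodendrocytes at 204 CPM. Mixed cells made up 27.2% of striatal and 8.05% of PFC interneurons, and the list is given with them included. In endothelial cells 6 of 15 (4.88% of all genes) and in microglia 4 of 7 (12.5%) were higher in the striatum, where the neuronal markers were higher too and the same filter applied. The part of neuronal RNA there was not tested either. In astrocytes 1 gene of the 9 tested was called higher and 2 lower in the striatum, the latter Ank2 (-0.88) and Nrcam (-0.87), where 10.4% of all genes tested were called. In oligodendrocytes 1 of 13, Ank3 (-0.72), was called, against 2.7% of all genes, and in progenitors 0 of 22 were called (edgeR, 4 at an unadjusted p under 0.05, against 13.8% of all genes).

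The genes whose level over the 18 cell types was most like that of each member were found by Pearson's r of log2(CPM + 1) among 11297 genes; the types share libraries and neurons share depth, so r is a description. Scn1a was most like Syngr3 (0.97), Clstn3 and Rab3c, Scn2a most like Pclo (0.97), Fabp3 and Rimbp2, Scn8a most like Dock3 (0.95), Hook1 and Ndn, and Scn3a most like Galnt13 (0.97), Jph3 and Lrrtm1. Among beta genes, Scn2b was most like Meg3 (0.99), Dmtn and Syt5, Scn3b most like Uchl1 (0.95), Pak6 and Cx3cl1, and Scn4b was close to Ankrd63 (0.95) and Ppp1r1b, the last a marker of MSNs fixed for this work. Among the members themselves Scn1a and Scn2a were closely alike over types (0.94) despite their opposite order in PFC neurons, and Scn4b was the least like the others (0.30 to 0.59).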

How the data were processed

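Single cells of papain-dissociated tissue were captured on the 10x Chromium platform, and the authors made UMI counts per gene and barcode with Cell Ranger 3.0.2 on mm10. Matrices of raw UMI counts were deposited for all 8 libraries (15154268 to 26277553 UMIs), with tables of cell types made by the authors in Seurat 3.2.0 over cells with at least 800 genes and under 10% mitochondrial UMIs. Whether doublets were removed is not given in the sources used here. Mixed cells (at least 2 UMIs over the 3 markers of another class) were left out as an alternative. For interneurons and MSNs the other classes were glia and excitatory neurons, so that mixtures of interneurons with MSNs were kept. Neuroblasts were checked against glia alone, and types of the oligodendrocyte lineage were not checked against each other.

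The deposited counts of annotated cells were summed per library and cell type and divided by the total of the same cells. Genotypes and tissues were compared with edgeR 4.0.16 in R 4.3.3 (quasi-likelihood test, TMM, filterByExpr with a minimum count of 10, at least 10 cells per library, Benjamini-Hochberg adjustment over all genes tested in a type). A gene was called at an adjusted p under 0.05 and a fold change above 1.5, or above 2 within the striatum. DESeq2 1.42.0, a replicate block, library size alone, no low-count filter and leaving out each library were alternatives. By the methods, each biological replicate held 1 WT and 1 Setd1a+/- sample. They do not state that title numbers mark these replicates, and taking same-numbered libraries as pairs is an assumption. Such libraries had a median correlation of deviations of 0.367 in the PFC and 0.185 in the striatum. Over PFC types this correlation ran from 0.114 in microglia to 0.599 in excitatory neurons. The genotype estimates, SEs and intervals printed are those of the fit without the replicate block. Steps were tested on simulated data. All 7 members are named in every result; genes of the wider list are named where 5 or fewer were called or among the 5 highest of excitatory neurons, and the calls of 7 in interneurons and the example Scn7a were chosen after their values were seen. Ratios of DL-Tshz2 over SL-Cux2 neurons, of NFO over progenitors and of progenitors over excitatory neurons were not among the planned contrasts. Some genes that these rules name are not reported here. The members and lists were chosen with earlier results of these data known.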

Additional observations from a re-analysis of the deposited data

Results flagged for a closer look

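In groups of 4 libraries, a library was singled out when its gap to the nearest other exceeded Dixon's 95% critical value of the range; 2 of 81 groups were, and chance gives about 1 in 20. Scn3b in DL-Foxp2 neurons was 67.1 CPM in PFC WT replicate 1, against 54.8 to 56.5 CPM in the other 3 libraries. Scn8a in D1 MSNs was 77.6 CPM in striatum WT replicate 1, against 59.8 to 62.4 CPM in the other 3.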

How the results depend on the processing

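The 0 genotype calls among members in PFC types and subtypes were kept under every alternative run. The replicate block changed no count of member calls: 0 genotype calls in the PFC types, subtypes and striatum, 7 tissue calls and 0 interaction calls, as without it. Over all genes the block moved the genotype calls from 0, 0 and 4 to 26, 11 and 79, and the tissue calls from 2837 to 3499. In the striatum, leaving out each library gave 0 to 1 calls; the 1 came without striatum Setd1a+/- replicate 1 and was Scn4b in oligodendrocytes (log2 fold change 2.62, edgeR adjusted p = 0.0271). It sets 1 Setd1a+/- library, with 10 UMIs in 67 cells and assumed to vary like the WT libraries, against 2, and Scn4b in striatal glia is not read as expression. The 7 tissue calls stayed 7 with DESeq2, library size alone or the adjusted p alone. They became 19 of 49 tests without the low-count filter, where 6957 of 112942 tests of all genes were called. Without mixed cells, an alternative chosen after seeing the data, they were 2 of 13, against 1292 of 37035 tests of all genes. The tissue calls ranged from 5 to 10 when each library was left out. They were 5 of 19 without striatum WT replicate 2, 10 of 23 without PFC WT replicate 2 and 10 of 25 without PFC Setd1a+/- replicate 2. Over all genes these runs called 1766 of 42676, 3989 of 46479 and 3062 of 46805 tests. Fewer tests passed the filter without mixed cells; other causes were not tested. Without mixed cells the log2 ratio of striatal interneurons to MSNs reversed to -0.12 for Scn8a and moved to 1.43 for Scn1a and 0.15 for Scn2a. Of the 31 planned ratios between types, 17 had 1 sign in 4 of 4 libraries, against 20 with cells weighted equally and 14 without mixed cells. Uncalled genotype estimates changed sign in 38 of 198 alternatives in PFC types, 41 of 333 in subtypes and 72 of 398 in the striatum.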
